A study of Homo sapiens with 12 samples.

Results

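Antisense transcripts are RNAs read from the strand opposite a known gene. The genes described here are those whose symbol ends in -AS or -AS and a number, the naming convention for a non-coding gene that lies antisense to the gene whose symbol stands before the ending. They number 1395 of the 60583 genes counted. The gene before the ending, called the sense gene below, is in the counts for 1370 of them. Of the antisense genes, 628 lie inside the span of the sense gene on the other strand, 392 cross its start, 188 cross its end, 64 span it whole and 78 are divergent, meaning that both genes start within 5 kb of each other without overlap and run apart. A further 25 have no sense gene of that exact symbol (HOXA-AS2 and HOXB-AS3 among them), 12 lie apart from it, 4 are on the strand of the sense gene and 4 have more than 1 interval. No read fell in 173 of the 1395 in any library, and 692 passed the filter on low counts in at least 1 comparison. GENCODE gives a type for 1225, of which 980 are antisense RNAs, 132 lincRNAs and 86 processed transcripts, and 1 goes against the label as a protein-coding gene.

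TT-seq reads out newly made RNA: a 4-thiouridine pulse labels it, and the labelled fragments are captured and sequenced. U2OS is a human osteosarcoma line. U2OS-AsiSI is the same line carrying AsiSI-ER, a restriction nuclease fused to an oestrogen-receptor domain, and its cells had 4-hydroxytamoxifen (OHT) for 1 hour, which brings the nuclease into the nucleus. The labels name no OHT for U2OS. Each line was transfected for 48 hours with siRNA, either the control (siCtrl) or one targeting INTS11 (siINTS11), which makes 4 groups of 3 libraries: U2OS siCtrl, U2OS siINTS11, U2OS-AsiSI siCtrl with OHT and U2OS-AsiSI siINTS11 with OHT. The sources used here do not say whether U2OS-AsiSI is 1 clone, and the lines differ in both the nuclease and OHT, which cannot be told apart. Labels do not state that replicates came from separate cultures, so p-values measure the spread between these libraries, which may be technical.

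INTS11 is the endonuclease of Integrator, a complex that binds RNA polymerase II soon after it leaves a promoter, cuts the new RNA and ends transcription early. Many mammalian promoters start transcription in both directions, and the antisense product is usually short-lived and ended early. Antisense genes with a name are the stable or spliced minority of such products, together with RNAs from separate promoters inside or downstream of the sense gene. Some have described roles in controlling the sense gene, others have none.

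Libraries held between 20704611 and 38065726 counted reads. INTS11 itself stood at 10.1, 8.88 and 10.1 CPM (reads scaled to a common total, with TMM factors that correct for composition) in U2OS siCtrl, above the 7.86, 7.07 and 7.19 CPM of U2OS siINTS11. In U2OS-AsiSI it stood at 9.64, 11 and 9.83 CPM against 9.01, 9.33 and 9.49 CPM, which also did not overlap but lay close. It changed by -0.13 (log2, SE 0.08, edgeR adjusted p 0.172) in U2OS-AsiSI and by -0.42 (SE 0.09, edgeR adjusted p 6.08e-05) in U2OS, so siINTS11 below means the libraries so labelled. Levels of the cell type markers that follow are CPM by library totals alone, without TMM factors. Summed over 12 bone lineage genes, they ran from 558 to 708 CPM, RUNX2 and COL1A1 being among the highest. BGLAP, however, was at 0 in 12 of 12 libraries and DLX5 in 10. A list of 8 markers of blood, epithelium, endothelium and liver summed to between 5.45 and 7.03 CPM in siCtrl and between 12.3 and 13.9 CPM in siINTS11, mostly from EPCAM, PECAM1 and CDH5, while CD3E was at 0 in 11 libraries; their part in the results was not tested, and in bulk RNA fewer cells of a type and less RNA per cell cannot be told apart. Since reads were counted over whole genes, it matters whether the strands were kept apart. Of 170 genes lying inside a densely read protein-coding gene on the same strand, 170 had no read, so reads shared by genes on one strand were not counted. Among 511 genes lying inside such a gene on the opposite strand, 86 (16.8%) had no read, and the median read density was 0.331% of that of the outer gene. The deposited counts therefore kept the strands apart in these pairs to within about that share.

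Promoter sequences are shown for antisense genes from both ends of the response, since each gene starts from its own promoter on the opposite strand. They come from RefSeq (GRCh38.p14) and run from 250 bases before to 50 bases after the annotated start, 5′ to 3′ on the strand of the gene. Capitals mark matches on either strand to a TATA box (TATAAA), a GC box (GGGCGG) or a CCAAT box (CCAAT). A cyclic-AMP response element (TGACGTCA), an E-box (CACGTG) and the AsiSI site (GCGATCGC) were also searched for, without a match in these 8. No motif holds another within it, but neighbouring matches can share end bases. The first 4 antisense genes rose after siINTS11 in both lines, and RAB11B, whose RefSeq start lies 331 bases from that of RAB11B-AS1, is given beside it. Their places are chr11:61757615-61757914 (minus strand) for MYRF-AS1, chr5:142325043-142325342 (plus) for SPRY4-AS1, chr19:8390642-8390941 (minus) for RAB11B-AS1, chr19:8390110-8390409 (plus) for RAB11B and chr9:12814340-12814639 (minus) for LURAP1L-AS1.
MYRF-AS1: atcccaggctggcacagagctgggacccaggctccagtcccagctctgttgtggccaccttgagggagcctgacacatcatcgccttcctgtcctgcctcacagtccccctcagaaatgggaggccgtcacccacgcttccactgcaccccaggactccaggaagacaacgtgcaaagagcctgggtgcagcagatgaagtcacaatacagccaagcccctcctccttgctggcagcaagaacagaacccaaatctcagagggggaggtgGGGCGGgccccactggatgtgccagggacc
SPRY4-AS1: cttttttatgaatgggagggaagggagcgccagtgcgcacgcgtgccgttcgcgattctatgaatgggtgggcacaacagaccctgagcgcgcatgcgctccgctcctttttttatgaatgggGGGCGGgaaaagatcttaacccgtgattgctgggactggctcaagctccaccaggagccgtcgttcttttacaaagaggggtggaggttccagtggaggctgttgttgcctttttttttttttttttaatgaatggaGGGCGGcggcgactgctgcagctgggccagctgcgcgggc
RAB11B-AS1: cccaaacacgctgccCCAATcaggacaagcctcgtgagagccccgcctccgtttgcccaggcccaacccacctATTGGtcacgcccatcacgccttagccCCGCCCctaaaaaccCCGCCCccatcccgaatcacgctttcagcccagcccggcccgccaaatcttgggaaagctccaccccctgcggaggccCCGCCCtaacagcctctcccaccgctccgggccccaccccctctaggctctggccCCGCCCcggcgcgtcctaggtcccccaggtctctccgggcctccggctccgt
RAB11B: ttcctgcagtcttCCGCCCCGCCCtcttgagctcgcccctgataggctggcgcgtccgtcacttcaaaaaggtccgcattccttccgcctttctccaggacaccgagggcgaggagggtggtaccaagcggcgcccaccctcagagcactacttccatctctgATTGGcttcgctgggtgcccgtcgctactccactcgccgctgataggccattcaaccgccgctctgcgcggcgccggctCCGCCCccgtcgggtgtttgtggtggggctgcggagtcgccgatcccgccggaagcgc
LURAP1L-AS1: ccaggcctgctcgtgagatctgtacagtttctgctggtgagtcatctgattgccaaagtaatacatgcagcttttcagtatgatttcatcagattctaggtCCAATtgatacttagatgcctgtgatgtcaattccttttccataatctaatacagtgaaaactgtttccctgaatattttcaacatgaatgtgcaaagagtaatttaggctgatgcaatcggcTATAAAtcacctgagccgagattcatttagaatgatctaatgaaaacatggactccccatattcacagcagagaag
The next 3 antisense genes fell after siINTS11 in both lines, and lie at chr5:136213798-136214097 for TRPC7-AS1, chr3:128075560-128075859 for RUVBL1-AS1 and chr22:27919126-27919425 for TTC28-AS1, on the plus strand.
TRPC7-AS1: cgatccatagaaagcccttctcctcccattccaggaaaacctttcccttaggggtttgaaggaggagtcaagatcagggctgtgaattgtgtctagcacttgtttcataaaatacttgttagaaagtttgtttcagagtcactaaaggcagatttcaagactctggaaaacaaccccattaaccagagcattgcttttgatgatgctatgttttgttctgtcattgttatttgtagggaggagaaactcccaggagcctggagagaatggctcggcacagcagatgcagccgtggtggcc
RUVBL1-AS1: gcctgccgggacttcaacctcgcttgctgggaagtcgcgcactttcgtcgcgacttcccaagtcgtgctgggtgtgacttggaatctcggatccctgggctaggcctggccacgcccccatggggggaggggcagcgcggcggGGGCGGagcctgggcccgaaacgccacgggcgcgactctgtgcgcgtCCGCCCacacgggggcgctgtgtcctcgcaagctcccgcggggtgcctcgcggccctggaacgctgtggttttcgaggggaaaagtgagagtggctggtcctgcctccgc
TTC28-AS1: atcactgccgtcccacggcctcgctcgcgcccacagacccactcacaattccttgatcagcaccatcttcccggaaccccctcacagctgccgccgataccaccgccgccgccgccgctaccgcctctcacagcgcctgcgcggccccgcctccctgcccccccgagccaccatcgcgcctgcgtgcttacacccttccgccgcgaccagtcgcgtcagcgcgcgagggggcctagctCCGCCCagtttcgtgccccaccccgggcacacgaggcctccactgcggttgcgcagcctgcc

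These promoters differed widely among themselves. GC content ran from 39.0% in LURAP1L-AS1, with 3 CpG and a TATA box, to 72.0% in TTC28-AS1, with 36 CpG. RAB11B-AS1 held 4 GC boxes and 2 CCAAT boxes, and TRPC7-AS1 no match to any motif. RefSeq promoters were found for 488 of the 692 antisense genes, 377 of them with a start within 300 bases of the start in the counts. Among these 377 the median GC content was 61.3%, against 58.3% over all 27305 promoters. A GC box was present in 52.5% (all promoters 44.6%), a CCAAT box in 30.8% (35.7%), a TATA box in 8.22% (12%), an E-box in 9.81% (7.43%), a cyclic-AMP response element in 2.92% (1.98%) and an AsiSI site in 0.531% (0.205%). Of the 183 promoters of antisense genes called higher in both lines 55.2% held a GC box, and of the 32 called lower 50%.

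More antisense genes rose than fell after siINTS11 in both lines. In U2OS-AsiSI, 664 were tested and 389 (58.6%) were called higher at an adjusted p of 0.05 by edgeR's quasi-likelihood test, where 35.4% of all 20441 genes were. Another 77 (11.6%) were called lower, against 32.6% of all genes. Their median log2 fold change was 0.40, beside 0.03 for all genes, and 108 rose and 9 fell by 2-fold or more. In U2OS the counts were 387 higher (58.5%; all genes 34.5%) and 86 lower (13.0%; all genes 32.4%) of 662, with a median of 0.42 beside 0.02. The same 346 were called higher in both lines (53.1% of 651 tested in both, against 28.5% of all genes), 65 lower (9.98% against 27.9%), and 1, ZNF667-AS1, in opposite directions (0.154% against 0.298%). All 3 siINTS11 libraries lay above all 3 siCtrl libraries for 413 of 664 antisense genes in U2OS-AsiSI (62.2%; 36.4% of all genes) and for 413 of 662 in U2OS (62.4%; 38.2%).

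A gene can pass the filter through the group where it is high, and 81 antisense genes in U2OS-AsiSI did so through siINTS11 alone, 61 of them called higher, against 4 through siCtrl alone, 2 of them called lower. Among the 568 with the equivalent of 10 reads in every library, 57.7% were called higher and 13.2% lower, with a median of 0.36, where all 18336 such genes stood at 33.3%, 35.1% and -0.00. The 578 such genes in U2OS stood at 57.6% and 13.7%. As a share of all counted reads, the 1395 antisense genes took 0.834% ± 0.020 (SD, n = 3) in U2OS-AsiSI siCtrl and 0.988% ± 0.013 in siINTS11, and 0.787% ± 0.005 and 0.948% ± 0.010 in U2OS, with no overlap between siRNAs in either line (exact two-sided permutation p 0.1, the smallest that 3 against 3 allow). Scaling by library totals alone moved the median of all genes from 0.03 to 0.22 in U2OS-AsiSI and from 0.02 to 0.22 in U2OS. It gave 470 antisense genes higher and 45 lower in U2OS-AsiSI and 474 and 53 in U2OS. The share called higher with that scaling was 70.8% of antisense genes and 51.6% of all genes in U2OS-AsiSI. In U2OS it was 71.6% and 53.0%. Among other non-coding genes, 53 of 92 divergent-named (-DT) genes (57.6%) and 412 of 785 LINC genes (52.5%) were called higher in U2OS-AsiSI. Protein-coding genes were called higher in 28.6% and lower in 39.5%.

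The largest rise by the naming rule was in SH3PXD2A-AS1 (chr10:103745966-103755423, plus strand), which lies inside SH3PXD2A, an adaptor gene for podosome formation. In U2OS, siCtrl gave 0.546, 0.339 and 0.353 CPM, and siINTS11 gave 4.29, 4.61 and 4.38 CPM. U2OS-AsiSI gave 1.12, 1.00 and 1.13 CPM against 5.9, 6.3 and 6.92 CPM. The groups did not overlap in either line, and its log2 change was 2.56 (SE 0.14, edgeR adjusted p 4.5e-16) in U2OS-AsiSI and 3.40 (SE 0.19, edgeR adjusted p 1.02e-19) in U2OS. With 15, 12 and 10 reads under siCtrl in U2OS, SH3PXD2A-AS1 was among those that passed the filter there only through siINTS11. The 65 such genes ran from 0.16 to 3.40 (log2), and its U2OS value is not free of this selection toward rises. MYRF-AS1 (chr11:61746493-61757655, minus strand) crosses the start of MYRF, which encodes a transcription factor of myelination. It stood at 0.801, 0.792 and 0.705 CPM under siCtrl in U2OS, at 4.68, 4.25 and 4.50 CPM there under siINTS11, and at 0.746, 1.35 and 1.53 against 5.73, 6.16 and 6.06 CPM in U2OS-AsiSI. Here too every siINTS11 library was above every siCtrl library, with log2 fold changes of 2.31 (SE 0.16) in U2OS-AsiSI and 2.51 (SE 0.16) in U2OS.

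Next came INKA2-AS1, inside the gene of an actin regulator, with log2 fold changes of 1.94 in U2OS-AsiSI and 2.09 in U2OS. PAX8-AS1 (chr2:113211421-113276581, plus strand) crosses the end of PAX8, a paired-box factor of thyroid and kidney. Its siCtrl libraries ran from 4.55 to 5.72 CPM and its siINTS11 libraries from 17.2 to 20.8 CPM over both lines. The rise was 1.85 (SE 0.08, edgeR adjusted p 3.11e-18) in U2OS-AsiSI and 2.01 (SE 0.08) in U2OS. BASP1-AS1, inside the gene of a membrane-attached neuronal protein, rose by 1.83 and 1.39. SPRY4-AS1, which starts 1162 bp inside SPRY4, the gene of an inhibitor of receptor tyrosine kinase signalling, rose by 1.71 and 1.96. RAB11B-AS1 crosses the start of RAB11B, a GTPase gene of recycling endosomes, and rose by 1.49 and 1.45. CYP4A22-AS1, which spans a fatty acid hydroxylase gene that was not tested for lack of reads, rose by 1.38 and 1.62. BASP1-AS1, SPRY4-AS1, RAB11B-AS1 and CYP4A22-AS1 overlap another gene on their own strand, so part of their span gave no counts.

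The falls were led by RHOXF1-AS1 (chrX:120036236-120146854, plus strand), which spans the germline homeobox gene RHOXF1. It had 4.19, 4.69 and 3.49 CPM under siCtrl in U2OS, and 0.725, 0.589 and 0.990 CPM under siINTS11. The U2OS-AsiSI values were 3.39, 3.63 and 3.22 CPM against 0.594, 0.308 and 0.582 CPM. With the groups well apart, its change on the log2 scale was -2.73 (SE 0.20, edgeR adjusted p 2.49e-13) in U2OS-AsiSI and -2.46 (SE 0.18) in U2OS. In U2OS-AsiSI, RHOXF1-AS1 had 17, 7 and 17 reads under siINTS11 and passed the filter only through siCtrl. Its value there is not free of this selection toward falls. RHOXF1 was itself too low to test. MYO16-AS1 (chr13:109163902-109201483, minus strand), inside the unconventional myosin gene MYO16, went from 8.12, 9.41 and 9.31 to 2.72, 3.01 and 3 CPM in U2OS and from 7.74, 7.46 and 6.36 to 1.99, 2.07 and 2.50 CPM in U2OS-AsiSI. That fall was -1.71 (SE 0.13) in U2OS-AsiSI and -1.65 (SE 0.11) in U2OS.

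Of the other falls, 4 cross the end of the sense gene: FAM13A-AS1 (-1.66 in U2OS-AsiSI and -1.42 in U2OS), ITGA9-AS1 (-1.37 and -1.28), PARD6G-AS1 (-1.19 and -1.19) and TTN-AS1 (-1.11 and -1.20), opposite genes of a GTPase-activating protein, an integrin subunit, a polarity protein and titin. Each of these 4 overlaps another gene on its strand. FAM13A-AS1 starts 757 bp and PARD6G-AS1 401 bp after the end of a protein-coding gene that runs in the same direction (HERC3 and ADNP2), a position in which reads from RNA that continues past that end would be counted to the antisense gene. TTN-AS1 starts 4720 bp after the end of PLEKHA3, and 2 of the 8 rises above are placed in the same way, as PAX8-AS1 starts 2025 bp after PSD4 and CYP4A22-AS1 4311 bp after PDZK1IP1. Of the 67 tested antisense genes with a protein-coding end within 10 kb upstream on their strand, 31 (46.3%) were called higher in U2OS-AsiSI. Another 18 (26.9%) were called lower, and all genes stood at 35.4% higher and 32.6% lower. The other 597 antisense genes had 358 higher and 59 (9.88%) lower. In U2OS it was 28 and 19 (29.7%) of 64, against 359 and 67 of 598, and 34.5% and 32.4% of all genes. The part of such reads in these values was not tested. TRPC7-AS1 (-1.27 and -1.24) lies inside a cation channel gene that was not tested.

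The second question was how each antisense change stood against that of the sense gene. The 562 distinct sense genes tested in U2OS-AsiSI fell more often than they rose: 148 (26.3%) were called higher and 263 (46.8%) lower, with a median of -0.11, beside the 28.6% and 39.5% of all protein-coding genes given above. In U2OS it was 148 and 253 of 559, with a median of -0.10. The ratio of antisense to sense reads within each library, which does not depend on library scaling, was tested for 577 pairs in U2OS-AsiSI. It was higher after siINTS11 in 343 pairs (59.4%) and lower in 74 (12.8%), with a median log2 change of 0.50. Of all 8060 pairs of neighbouring or overlapping genes on opposite strands, 45.1% were higher and 20.1% lower. In these, the gene of shorter span took the antisense place unless the names gave it. Among all genes, those under 5 kb were called higher in 50.7% and those over 100 kb in 23.3%. A further set left out the pairs of an antisense gene and its sense gene. Its 2712 pairs held a gene not typed as protein-coding in the antisense place, opposite a protein-coding gene. Of these, 1619 (59.7%) were higher and 252 lower, and they can include antisense genes opposite a gene of another name. For U2OS, 341 of 574 named pairs were higher (59.4%; all pairs 45.1%) and 74 lower (12.9%; all pairs 20.7%), with a median of 0.48.

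**Figure D1:**
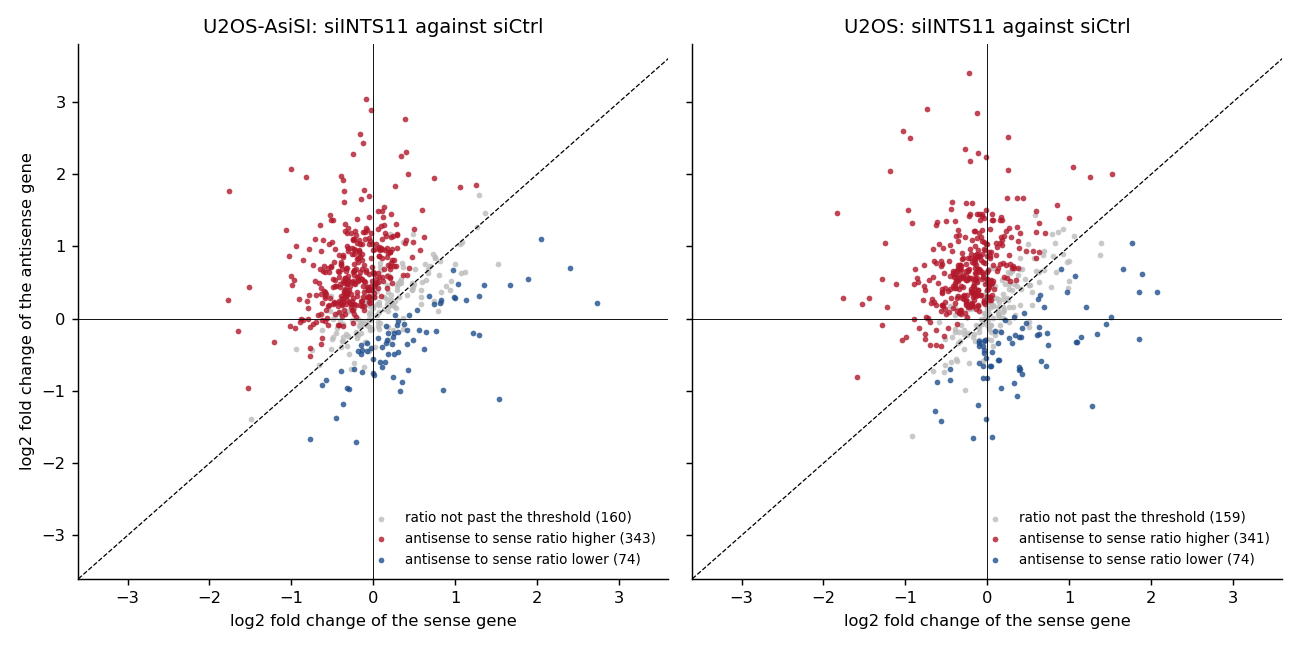
Log2 fold change of each antisense gene (vertical) against that of its sense gene (horizontal), siINTS11 against siCtrl, in U2OS-AsiSI (577 pairs) and U2OS (574 pairs). Points are pairs, coloured by the edgeR test of the antisense to sense ratio, the dashed line marks equal change, and most points (343 and 341 called) lie above it.

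By single gene calls, the antisense gene rose while the sense gene fell in 149 of 577 pairs in U2OS-AsiSI (25.8%; 15.9% of all pairs), both rose in 100 (17.3%; 17%), both fell in 31 (5.37%; 9.28%), and the antisense gene fell while the sense gene rose in 12 (2.08%; 4.91%). In U2OS those numbers were 152 (26.5%; 16.5%), 99 (17.2%; 15.5%), 35 (6.1%; 8.1%) and 19 (3.31%; 5.26%) of 574. Antisense genes were called higher beside sense genes called lower (149 of 269, 55.4%) and beside sense genes called higher (100 of 152, 65.8%). Across the 577 pairs, Spearman's rank correlation between the 2 changes was 0.13 in U2OS-AsiSI, and 0.07 across 574 in U2OS, as a description over pairs that share libraries and depth. It was 0.25 and 0.23 for antisense genes crossing the sense start, and 0.02 and -0.00 for those inside. The changes of antisense genes in the 2 lines had a Spearman correlation of 0.90 over 651 genes, again as a description.

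In 71 pairs past the count minimum both genes were called in opposite directions in both lines, 67 of them with the antisense gene higher. This count was not taken over all pairs. By line, opposite calls over all pairs also leaned that way, with 1279 against 396 of 8060 in U2OS-AsiSI and 1347 against 429 of 8163 in U2OS. The pairs whose ratio rose most were SH3PXD2A-AS1, LURAP1L-AS1, MYRF-AS1, ARHGAP29-AS1 and TP73-AS1 with their sense genes. SH3PXD2A itself ran from 377 to 449 CPM under siCtrl and from 325 to 385 CPM under siINTS11 over both lines, a log2 change of -0.16 (edgeR adjusted p 0.0042) in U2OS-AsiSI and -0.22 in U2OS. The ratio of the pair therefore rose by 2.72 (SE 0.14, edgeR adjusted p 6.85e-13) and 3.62 (SE 0.18), the latter under the limit given above for SH3PXD2A-AS1 in U2OS. LURAP1L-AS1 (chr9:12698554-12814377, minus strand) starts 39357 bp inside LURAP1L and runs past its start. Its libraries gave 28.3, 26.3 and 31.5 CPM in U2OS siCtrl, 69.7, 74.7 and 74.7 in U2OS siINTS11, 28.9, 29.2 and 32.3 in U2OS-AsiSI siCtrl and 77.9, 66.8 and 65.6 in U2OS-AsiSI siINTS11. LURAP1L gave 23.0, 22.5 and 25.1, then 11.8, 13.4 and 12.8, then 16.7, 13.8 and 15.4, and last 7.20, 7.22 and 7.29 CPM in the same order. The antisense gene rose and the sense gene fell without overlap in both lines, and the ratio rose by 2.30 (SE 0.10, edgeR adjusted p 3.68e-14) in U2OS-AsiSI and 2.24 (SE 0.07) in U2OS.

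ARHGAP29-AS1 starts inside ARHGAP29, a GTPase-activating protein gene, and rose by 0.87 and 0.74 (U2OS-AsiSI and U2OS) while ARHGAP29 fell by 1.03 and 0.77 on the log2 scale. The read density of ARHGAP29-AS1 was 2.66% of that of ARHGAP29, beside an upper quartile of 1.82% for the genes nested on the opposite strand described above. TP73-AS1 (chr1:3735511-3747373, minus strand) crosses the end of TP73, a gene of the p53 family. Its U2OS libraries went from 3.39, 3.79 and 3.53 to 7.80, 7.49 and 7.44 CPM, and those of U2OS-AsiSI from 4.44, 4.73 and 5.01 to 8.63, 9.33 and 9.55 CPM. TP73 went from 40.9, 39.3 and 38.3 to 17.8, 15.4 and 17.4 CPM in U2OS and from 34.3, 36.2 and 30.8 to 20.3, 18.6 and 19.6 CPM in U2OS-AsiSI. Both genes thus changed without overlap and in opposite directions, and the ratio rose by 1.75 (SE 0.11) in U2OS-AsiSI and 2.30 (SE 0.11) in U2OS. MYRF was called higher along with its antisense gene (0.39 and 0.25), and RAB11B did not pass the threshold (0.06, edgeR adjusted p 0.336, and -0.07, edgeR adjusted p 0.248) beside the rise of RAB11B-AS1. Other rises shared a direction with the sense gene: INKA2 (0.74 and 1.04), PAX8 (1.25 and 1.52), BASP1 (1.05 and 1.00) and SPRY4 (1.29 and 1.26) were called higher in both lines.

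**Figure D2:**
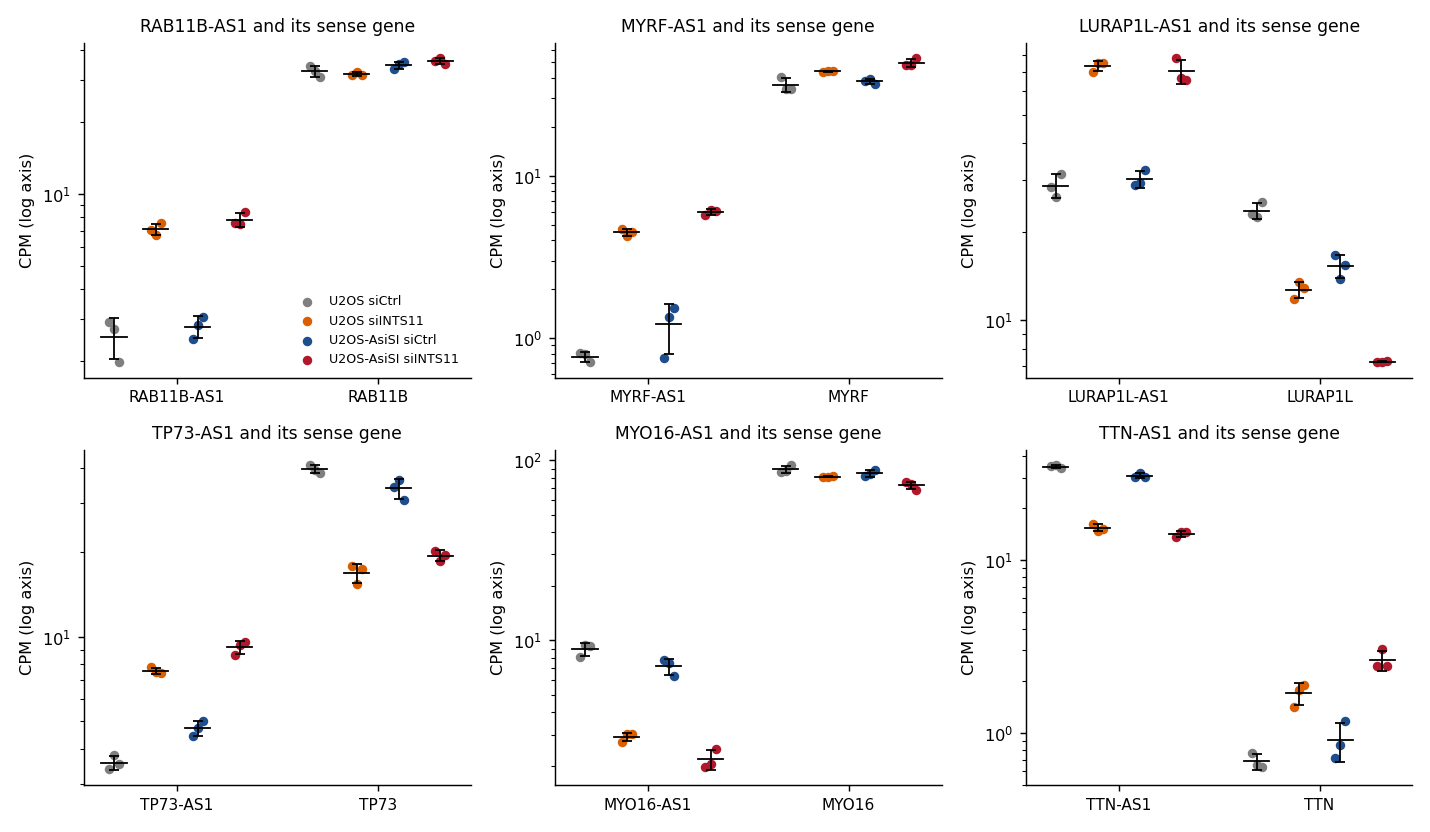
Level of 6 antisense genes and their sense genes in each of the 12 libraries, in CPM on a log axis, with the mean and SD of each group of 3 in black. RAB11B-AS1 and MYRF-AS1 rose more than their sense genes, LURAP1L-AS1 and TP73-AS1 rose while the sense gene fell, and MYO16-AS1 and TTN-AS1 fell, the latter beside a low TTN that rose.

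In the pairs whose ratio fell most, the antisense gene fell in 4 of 5. MYO16 was called lower (-0.22 and -0.17) beside the fall of MYO16-AS1, and the ratio fell by 1.49 in both lines. VLDLR-AS1 (chr9:2421597-2643359, minus strand), which crosses the start of a lipoprotein receptor gene, ran from 154 to 212 CPM under siCtrl and from 98.0 to 138 CPM under siINTS11 over both lines, and did not overlap between siRNAs within a line. Its change was -0.71 and -0.65, while VLDLR was called higher in U2OS-AsiSI (0.42) and not in U2OS (0.04, edgeR adjusted p 0.485). RUVBL1-AS1, inside the gene of an ATPase of chromatin remodelling complexes, starts 4127 bp after the end of SEC61A1 on its strand. It fell by 0.80 and 0.96 on the log2 scale beside a rise of RUVBL1 by 0.23 and 0.16. KIF9-AS1, which crosses the end of a kinesin gene, fell by 0.41 and 0.58 while KIF9 rose by 0.61 and 0.65. In the last pair, NPSR1-AS1 rose (1.10 and 1.04) but the neuropeptide receptor gene NPSR1 rose more (2.05 and 1.76). TTN-AS1 had 34.0 to 35.3 CPM in U2OS siCtrl and 14.8 to 16.2 in U2OS siINTS11, and TTN, too low to enter the rule for named pairs, 0.635 to 0.765 and 1.42 to 1.88 CPM; the ratio of that pair fell by 2.65 in U2OS-AsiSI and 2.48 in U2OS.

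Antisense genes at the sense start and those elsewhere were then set side by side. Of all genes, 35.4% were called higher and 32.6% lower in U2OS-AsiSI (U2OS 34.5% and 32.4%). Divergent genes were called higher in 37 of 59 cases and lower in 1 in U2OS-AsiSI (U2OS 40 and 2 of 58). Genes crossing the sense start were higher in 171 and lower in 23 of 275, those inside in 77 and 16 of 146, those crossing the end in 67 and 21 of 112, and those spanning the sense gene in 24 and 13 of 49. Medians were 0.40, 0.45, 0.51, 0.33 and 0.18 in that order, and in U2OS 0.38, 0.46, 0.44, 0.43 and 0.27. The antisense to sense ratio was higher in 44 of 57 divergent pairs and lower in 1 (U2OS 41 and 0 of 56), and higher in 165 of 255 pairs crossing the start, 75 of 137 inside, 48 of 98 crossing the end and 9 of 24 spanning (U2OS 166 of 258, 71 of 134, 51 of 96 and 10 of 24). Whether these classes differ from each other was not tested.

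**Figure D3:**
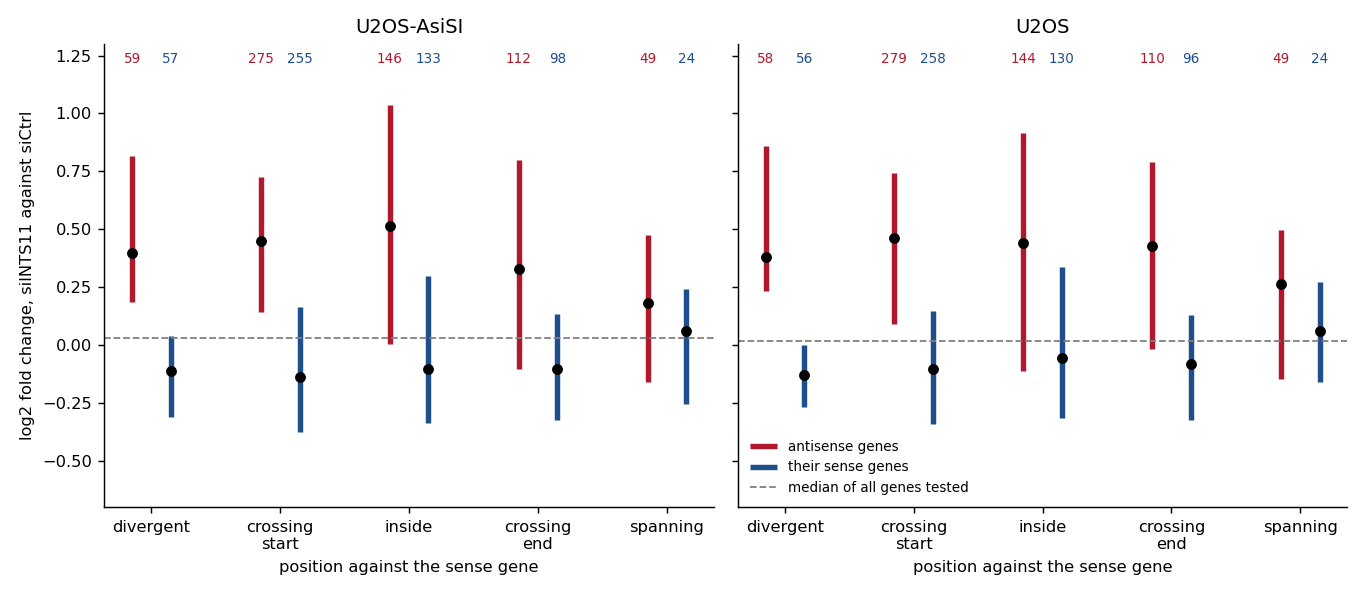
Median (black point) and interquartile range (bar) of the log2 fold change, siINTS11 against siCtrl, of antisense genes and of their sense genes by position, with the number tested above each bar and the median of all genes as a dashed line. Antisense medians lie between 0.18 and 0.51 and, spanning genes aside, sense medians between -0.14 and -0.05.

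The distance between the 2 starts was taken next. Where the antisense gene began within 1 kb of the sense start, 129 of 199 (64.8%; all genes 35.4%) were called higher and 11 (5.53%; 32.6%) lower in U2OS-AsiSI, and the ratio was higher in 141 of 189 pairs (all pairs 45.1%) and lower in 9 (all pairs 20.1%). Beyond 5 kb, 190 of 350 were higher and 58 lower, and the ratio was higher in 152 of 298 pairs and lower in 54. In U2OS the genes within 1 kb stood at 133 higher and 12 lower of 198, and those beyond 5 kb at 187 and 62 of 349. The span of the sense gene went with its own change but hardly with that of the antisense gene: medians for sense spans under 20 kb, 20 to 100 kb and over 100 kb were 0.09, -0.10 and -0.31 for sense genes and 0.40, 0.44 and 0.38 for antisense genes in U2OS-AsiSI, so that the median ratio change was 0.35, 0.50 and 0.65.

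By their own span, antisense genes of every length band were called higher more often than all genes of that band. In U2OS-AsiSI the shares were 61.4% against 50.7% under 5 kb, 61.8% against 45.4% from 5 to 20 kb, 58.6% against 30.2% from 20 to 100 kb and 50.8% against 23.3% over 100 kb. The 130 antisense genes over 100 kb had a median of 0.24, beside -0.24 for all genes that long, of which 56.9% were called lower. U2OS shares ran 57.4%, 67.0%, 57.0% and 50.4%, against 40.5%, 45.6%, 31.0% and 24.4%. In 4 bands of reads per base, between 57.0% and 62.5% of antisense genes were called higher in U2OS-AsiSI (all genes 29.9% to 44.9%) and between 54.7% and 66.7% in U2OS, with medians from 0.49 in the sparsest to 0.35 in the densest band (U2OS 0.50 to 0.25). In 4 bands of exon number, the shares called higher ran from 56.6% to 59.4% in U2OS-AsiSI and from 46.9% to 58.8% in U2OS. Medians for at most 2, 3 to 5 and over 5 exons were 0.56, 0.37 and 0.29 (U2OS 0.54, 0.40 and 0.31), and for single-exon genes 0.41 (U2OS 0.32). Antisense genes that overlap no other gene on their strand were called higher in 295 and lower in 46 of 500 in U2OS-AsiSI, against 94 and 31 of the 164 that do.

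**Figure D4:**
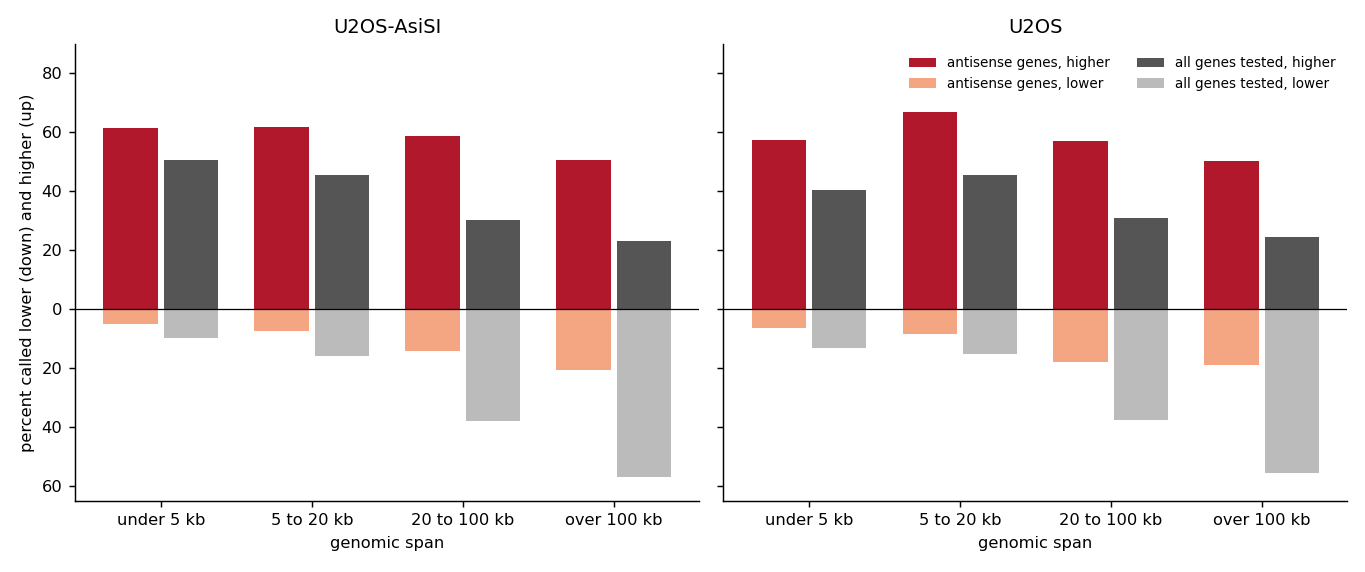
Percent of antisense genes and of all genes tested that were called higher (upward bars) and lower (downward bars) after siINTS11, by genomic span, in U2OS-AsiSI and U2OS. All genes over 100 kb were mostly called lower (56.9% in U2OS-AsiSI), while antisense genes of that span were called higher in 50.8%.

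Groups by the kind of sense gene were small. Antisense genes of the HOX clusters, which hold developmental homeobox genes, were called higher in 7 and lower in 0 of 10 in U2OS-AsiSI (U2OS 7 and 0 of 9). Those opposite solute carrier and ion channel genes were higher in 17 and lower in 2 of 21 (U2OS 17 and 2 of 22), and those opposite zinc finger genes in 16 and 3 of 26 (U2OS 15 and 4 of 27). Antisense genes of other developmental transcription factors were called higher in 9 and lower in 5 of 21 (U2OS 9 and 5 of 20). Each of these stands beside 35.4% of all genes called higher in U2OS-AsiSI and 34.5% in U2OS, and none of the 4 was tested as a group. With DESeq2, HOXA-AS2 (adjusted p 0.164), HOXA-AS3 (0.0569), HOXB-AS1 (0.101) and HOXC-AS1 (0.127) lost their U2OS-AsiSI calls. HOXC-AS1 (0.0998) and HOXC-AS3 (0.0947) lost theirs in U2OS. The U2OS-AsiSI calls of HOXB-AS1 and HOXC-AS1 were each also lost for 4 libraries when 1 was left out.

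A list of 40 antisense RNAs with described functions was followed by name. The counts held 37 of them and 28 were tested, with 18 called higher and 2 lower in U2OS-AsiSI and 17 and 2 of 27 in U2OS. These stand beside 58.6% and 58.5% of all tested antisense genes called higher, and 35.4% and 34.5% of all genes. Besides the HOX genes named above, DESeq2 lost the calls of CDKN2B-AS1 (adjusted p 0.168) and GATA2-AS1 (0.185) in U2OS-AsiSI. In U2OS it also lost that of NNT-AS1 (0.0526). NR2F2-AS1, at the start of an orphan nuclear receptor gene, rose from a mean of 36.4 to 81.0 CPM in U2OS-AsiSI (log2 1.16) and from 28.9 to 67.0 CPM in U2OS (1.18). HAS2-AS1, opposite the hyaluronan synthase gene, rose by 1.06 and 0.96, HOXB-AS3 by 0.84 and 1.08, KLF3-AS1 by 0.90 and 0.77, and MEF2C-AS1 by 0.66 and 0.49. HIF1A-AS1, opposite the hypoxia factor gene, rose by 0.69 and 0.61. The 2 that fell were WT1-AS (-0.41 and -0.66), at the start of the Wilms tumour gene, and NR2F1-AS1 (-0.46 and -0.26). With library totals alone the fall of WT1-AS in U2OS-AsiSI (-0.22, edgeR adjusted p 0.052) and that of NR2F1-AS1 in U2OS (-0.06, edgeR adjusted p 0.316) no longer passed. FGD5-AS1 (0.06 and 0.10), GABPB1-AS1 (0.09 and 0.09), ZEB1-AS1 (0.20 and 0.11), FOXD2-AS1 (-0.03 and 0.05) and TOB1-AS1 (0.20 and 0.16) passed the threshold in neither line, although with library totals alone FGD5-AS1, GABPB1-AS1 and ZEB1-AS1 did in both and FOXD2-AS1 in U2OS.

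The 5 antisense genes densest in new RNA changed by 0.65 or less. ZNF674-AS1, EPB41L4A-AS1, KMT2E-AS1, NFYC-AS1 and DLGAP1-AS1 led by reads per kb of span under siCtrl, with means between 5.40 and 9.94 CPM per kb in U2OS-AsiSI siCtrl, and the first 3 begin inside genes of a zinc finger protein, a cytoskeletal linker and a chromatin regulator. NFYC-AS1, opposite a subunit gene of the CCAAT-binding factor, rose by 0.65 and 0.47 and EPB41L4A-AS1 by 0.27 and 0.16, beside a fall of EPB41L4A by 0.90 and 1.23. ZNF674-AS1 was called higher in U2OS-AsiSI alone (0.22; U2OS -0.02), and KMT2E-AS1 (0.12 and -0.19) and DLGAP1-AS1 (-0.05 and 0.09) in neither line. These genes are among the 16 tested antisense genes above 0.1 reads per base.

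Few antisense genes were called as responding differently in the 2 lines. For the difference of the siINTS11 change (U2OS-AsiSI minus U2OS) 692 antisense genes were tested. Of these, 1 was called higher (0.145%; all 21521 genes 0.762%) and 11 lower (1.59%; all genes 3.1%). The unadjusted edgeR p was under 0.05 for 85, a count that was not taken over all genes. The adjusted calls depended on the settings, with between 3 and 10 lower and between 0 and 2 higher in the alternatives. IGFL2-AS1 (chr19:46189029-46203160, minus strand), which lies apart from an IGFL2 too low to test, stood at 20.3, 19.5 and 19.7 CPM under siCtrl in U2OS and rose to 31.5, 34.6 and 31.5 CPM under siINTS11. In U2OS-AsiSI it had 13.5, 13.7 and 14.4 against 12.3, 13.7 and 15.9 CPM. It thus rose in U2OS (0.68, SE 0.06) while its groups overlapped in U2OS-AsiSI (0.02, SE 0.08), a difference of -0.70 (SE 0.10, edgeR adjusted p 0.000152). ZNF667-AS1, at the start of a zinc finger gene, was called higher in U2OS (0.17) and lower in U2OS-AsiSI (-0.43), a difference of -0.63 (edgeR adjusted p 0.000249); for ZNF667 the difference was -0.37 (edgeR adjusted p 0.0123). FAM198B-AS1 fell in U2OS-AsiSI (-0.87) and not past the threshold in U2OS (-0.21, edgeR adjusted p 0.0502), with a difference of -0.69 (edgeR adjusted p 0.00671). SAMD12-AS1 (1.12 and 1.45) and IQCH-AS1 (0.51 and 0.79) rose in both lines, with differences of -0.37 and -0.32, calls that were lost for 7 and 9 of the 12 libraries when 1 was left out. The call of SAMD12-AS1 held only without U2OS siCtrl 2, U2OS siINTS11 1, or U2OS-AsiSI siCtrl 2, siCtrl 3 or siINTS11 1, and that of IQCH-AS1 only without U2OS siCtrl 2 or U2OS-AsiSI siCtrl 1 or siINTS11 1. Both calls were also lost with median-of-ratios scaling, library totals, no filter, a mean count of at least 50 and DESeq2. That of IQCH-AS1 was lost as well with the replicate block and with only genes under 0.1 reads per base. The rise of ZNF667-AS1 in U2OS was lost without siCtrl 1 or siINTS11 2 and with DESeq2 (adjusted p 0.0736).

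**Figure D5:**
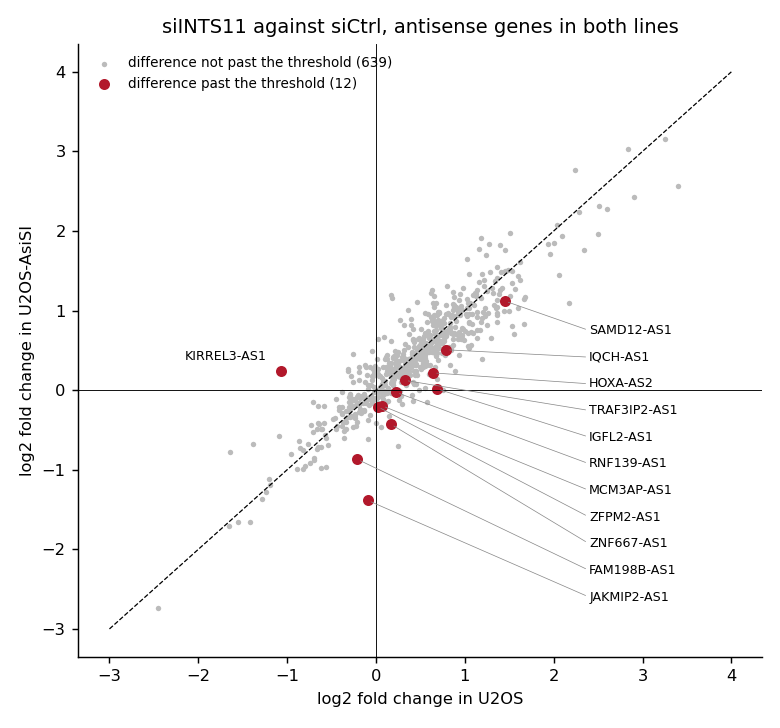
Log2 fold change of 651 antisense genes after siINTS11 in U2OS (horizontal) and U2OS-AsiSI (vertical), with equal change as a dashed line. The 12 genes whose difference passed the threshold are named, and 11 of them lie below the line.

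Between the lines under siCtrl, 97 antisense genes were higher in U2OS-AsiSI (15.6%; 17.8% of all 19935 genes) and 64 lower (10.3%; 17.2%) of 623, shares at or under those of all genes. Of the calls 60.2% were higher, a share that became 77.8% with library totals alone. Calls over all genes were 3542 higher and 3421 lower, and 4921 and 2376 with library totals alone. The list by smallest p was led by ZFPM2-AS1 (chr8:105546089-106060524, minus strand), which overlaps the end of the GATA cofactor gene ZFPM2 and is the antisense gene of highest level among those named. It gave 592, 621 and 692 CPM in U2OS siCtrl and 908, 879 and 962 CPM in U2OS-AsiSI siCtrl, a log2 difference of 0.53 (SE 0.05, edgeR adjusted p 9.65e-10). ZFPM2 went the other way (-0.18, edgeR adjusted p 0.00157). PRR7-AS1 (0.77), NOP14-AS1 (0.56), opposite a ribosome assembly gene, MATN1-AS1 (0.70), opposite a cartilage matrix gene, and NR2F1-AS1 (0.31) followed. Lower in U2OS-AsiSI were IGFL2-AS1 (-0.52), USP2-AS1 (-0.51), opposite a deubiquitinase gene, TTC28-AS1 (-0.43), which also fell after siINTS11 in U2OS-AsiSI (-0.64) and U2OS (-0.87), ALOX12-AS1 (-0.39), opposite a lipoxygenase gene, and CKMT2-AS1 (-0.34), opposite the gene of a mitochondrial creatine kinase. USP2-AS1 ran from 46.6 to 50.9 CPM in U2OS siCtrl and from 32.3 to 36.6 CPM in U2OS-AsiSI siCtrl, without overlap, and fell after siINTS11 in both lines (-0.62 in U2OS and -0.48 in U2OS-AsiSI).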

How the data were processed

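TT-seq was done on 12 libraries in 4 groups of 3. The values are raw read counts per gene span, introns included, as the authors deposited them, on hg38. Trimmomatic 0.36, STAR 2.7, featureCounts and deepTools are named in the submitters' processing notes, without roles; the strand setting is not given in the sources used here and was read from the counts. Yeast spike-in genes are not analysed here, so a change common to all RNA cannot be seen. The members and the gene lists were chosen with earlier results of these data known.

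Each comparison was fitted over all genes on the deposited counts with edgeR 4.0.16 in R 4.3.3 (filterByExpr, TMM scaling, robust quasi-likelihood test), with Benjamini-Hochberg adjustment and a threshold of 0.05. The change in each line used its own 6 libraries, the difference between lines all 12. Printed CPM values come from TMM scaling of all 12, except those of the marker lists, which were scaled by library totals alone. The ratio of antisense to sense counts was fitted in edgeR over all opposite-strand gene pairs that overlap or lie within 5 kb. The library was a block, so scaling drops out. Where names did not decide, the gene of shorter span came first, which by itself makes the pairs unequal. Comparison counts of genes include only those past the filter; 731 antisense genes in U2OS-AsiSI and 733 in U2OS were not tested.

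Named genes were the 8 largest rises and 8 largest falls in U2OS-AsiSI among those past the threshold in both lines, averaging 100 or more reads in the higher group, whose siRNA groups did not overlap; 1 of the falls and some marker genes are not reported here. Named pairs were the 5 with the largest difference each way and the 4 most opposite, with the same minimum for both genes. For the lines, the 5 with the smallest p each way were taken, and the 5 densest under siCtrl and a list of described RNAs were added. Promoters were restricted, after values were seen, to antisense genes whose RefSeq start lay within 50 bases of the start in the counts.

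Alternatives were median-of-ratios scaling, library totals, no filter, a minimum mean of 50 reads, a block for replicate number, the DESeq2 1.42.0 test, limma 3.58.1 for pairs, only genes under 0.1 reads per base, only antisense genes free of same-strand overlap and each library left out; a limit of 5% of the sense density was added after seeing the data. On simulated data the gene test recovered 85.3% of 2-fold changes in U2OS-AsiSI (20127 genes) and 91.8% in U2OS (20364 genes). For the difference between the lines it recovered 76.4% of 2-fold and 44.7% of 1.5-fold changes, with 6.11% of calls false. The pair test recovered 77% of 2-fold changes in U2OS-AsiSI (6.9% of calls false) and 84.5% in U2OS (3.31%). The simulation gave every gene the same spread, which real genes need not share, and the gene test drew changed genes from all genes. The chi-square per degree of freedom between replicates ran from 2.22 to 3.33, above sampling noise in each group. No outlier test was made, since groups hold 3 libraries.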

Additional observations from a re-analysis of the deposited data

Results flagged for a closer look

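For 12 antisense genes the change after siINTS11 differed between the lines by edgeR's test of the difference (U2OS-AsiSI minus U2OS, log2), and their values are given without explanation. In 11 the difference was negative. IGFL2-AS1 had -0.70, ZNF667-AS1 -0.63 and FAM198B-AS1 -0.69.

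JAKMIP2-AS1, opposite a gene of a microtubule-associated protein, had a difference of -1.33 (SE 0.33, edgeR adjusted p 0.0218). Its libraries gave 2.88, 2.57 and 1.90 CPM in U2OS siCtrl and 1.66, 2.42 and 3 CPM in U2OS siINTS11, which overlap, and 1.59, 1.82 and 1.57 against 0.349, 0.749 and 0.822 CPM in U2OS-AsiSI, which do not. KIRREL3-AS1, inside the gene of a cell adhesion protein, had the positive difference, 1.27 (SE 0.33, edgeR adjusted p 0.0244). It fell in U2OS from 1.82, 1.39 and 1.52 to 0.755, 0.785 and 0.735 CPM, while U2OS-AsiSI gave 0.780, 0.783 and 0.439 against 0.734, 0.705 and 0.925 CPM, which overlap.

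SAMD12-AS1 had a difference of -0.37 and IQCH-AS1 one of -0.32, both on top of a rise in each line. Both calls were lost with DESeq2 and in other alternatives given above. MCM3AP-AS1 (-0.30) and ZFPM2-AS1 (-0.26) were called lower in U2OS-AsiSI and passed no threshold in U2OS. With library totals alone the fall of ZFPM2-AS1 in U2OS-AsiSI was no longer called (-0.019, edgeR adjusted p 0.669), and in U2OS it was called higher (0.22). RNF139-AS1 (-0.29) was called higher in U2OS (0.23) and not in U2OS-AsiSI (-0.03). HOXA-AS2 (-0.46) and TRAF3IP2-AS1 (-0.23) were called higher in both lines and rose more in U2OS. The U2OS-AsiSI call of HOXA-AS2 (edgeR adjusted p 0.0475) was lost with median-of-ratios scaling (0.0638), without the filter (0.0805), with DESeq2 (0.164) and without siCtrl 1, siCtrl 2, siINTS11 2 or siINTS11 3 of U2OS-AsiSI.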

How the results depend on the processing

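The direction of the overall counts did not change under any alternative run: more antisense genes were called higher than lower in each line, and more pairs. Leaving out each library in turn gave 353 to 390 higher and 72 to 77 lower in U2OS-AsiSI, 363 to 390 and 77 to 83 in U2OS, 318 to 348 and 62 to 74 for pairs in U2OS-AsiSI and 323 to 333 and 65 to 72 for pairs in U2OS. The numbers called lower were 45 and 53 (U2OS-AsiSI and U2OS) with library totals, for which the cause was not tested. All genes called lower went from 6657 and 6706 to 4033 and 3800 with that scaling. Without the antisense genes that overlap another gene on their strand, 46 and 57 were called lower. The genes left out were called lower in 18.9% and 17.7%, those kept in 9.2% and 11.4%. Pairs called lower were 49 and 47 at a mean count of at least 50, and 47 and 46 without same-strand overlap.

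The difference between the lines was the least stable, and the cause was not tested. Its 11 lower calls became 4 with median-of-ratios scaling, 5 with library totals, 4 without the filter, 4 at a mean count of at least 50, 3 with DESeq2, 6 under 0.1 reads per base and 7 without same-strand overlap; the 1 higher call became 2 without the filter, 2 at a mean count of at least 50, 0 with DESeq2 and 0 at 5% of the sense density. The sets tested differed in size, with 692 antisense genes as reported, 1222 without the filter and 458 at a mean count of at least 50. They held 676 under 0.1 reads per base, 525 without same-strand overlap and 554 at 5% of the sense density. Leaving out a library gave 3 to 10 lower, under 8 for each library but U2OS siCtrl 2, U2OS-AsiSI siCtrl 3 and U2OS-AsiSI siINTS11 1, and 0 to 2 higher. Between the lines under siCtrl, DESeq2 gave 54 higher (all genes 2517), library totals 36 lower (all genes 2376) and no same-strand overlap 33 lower of 465. Leaving out a library there gave 62 (without U2OS-AsiSI siCtrl 3) to 99 higher and 42 (without U2OS siCtrl 2) to 63 lower.

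Deviations of same-numbered replicates from their group means correlated weakly (from -0.11 to 0.14), within each line and between the lines under siCtrl. Such values cannot show whether same-numbered libraries were handled together, which the labels do not say. With the replicate block the counts were 394 and 78 in U2OS-AsiSI, 384 and 84 in U2OS, 1 and 6 for the difference and 86 and 56 between the lines; in the pair test the library block already holds the replicate. A divergent distance of 1 kb left 35 of 55 called higher in U2OS-AsiSI.

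Among single values, 3057 kept direction and side, 103 lost their call, 42 gained one and 34 turned sign. Calls lost with median-of-ratios scaling included HOXA-AS2 and GATA2-AS1 in U2OS-AsiSI and the differences of SAMD12-AS1 and IQCH-AS1. Those that turned sign in U2OS-AsiSI were IGFL2-AS1 (-0.0030 with median-of-ratios scaling, -0.0043 with DESeq2, -0.093 without siINTS11 3); with library totals ALOX12-AS1 0.11, DLGAP1-AS1 0.14, FOXD2-AS1 0.16 and FOXP4-AS1 0.17; at a mean count of at least 50 DLGAP1-AS1 0.0011, FOXD2-AS1 0.026 and FOXP4-AS1 0.036; under 0.1 reads per base FOXP4-AS1 0.0089. Leaving out a library gave FOXD2-AS1 0.0015 and 0.013 (lowest -0.078), FOXP4-AS1 0.0063, 0.0055 and 0.0088 (lowest -0.069), DLGAP1-AS1 0.012 (lowest -0.095) and TOB1-AS1 -0.014 (highest 0.35). In U2OS, library totals gave ALOX12-AS1 0.13, ZNF674-AS1 0.18, KMT2E-AS1 0.012 and GATA2-AS1 0.15, and a mean count of at least 50 gave ZNF674-AS1 0.022; leaving out a library gave ZFPM2-AS1 -0.022 and -0.00911 (highest 0.092), ZNF674-AS1 0.026 (lowest -0.053), FOXD2-AS1 -0.017 and GATA2-AS1 0.073. For pairs, leaving out a library gave FOXP4-AS1 -0.00821 and -0.0070 (highest 0.050) and TOB1-AS1 -0.071 and -0.14 (highest 0.19) in U2OS-AsiSI, and ZNF674-AS1 -0.013 and -0.0090 (highest 0.12) in U2OS. None of these values passed the threshold as reported. Levels near 1 CPM rest on few reads, which limits them.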
